A study of Homo sapiens with 2 samples.

Results

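The 3p arms of the miR-6715 to miR-6895 hairpins were described in exosomes, vesicles shed into the culture medium, of glioblastoma cells. Members were defined by name, as every probe for a single miRNA from miR-6715 to miR-6895 whose name ends in -3p. Earlier results of these data were known at that point. This gave 174 of the 2632 miRNA probes on the array. Both groups used U87MG delta EGFR cells, made from 1 glioblastoma line and carrying in their name a shortened form of the receptor for epidermal growth factor, grown with exosome-depleted serum. The control cells were labelled as non-treated. The other cells were given boron neutron capture therapy (BNCT), in which boron loaded into cells is split by neutrons and releases short-range particles. They were held for 2 hours with 25 ppm of p-Boronophenylalanine-fructose complex, irradiated with thermal neutrons, and their medium was taken 3 days later. The labels give no separate handling for the control cells, so compound, irradiation, handling and time of collection cannot be told apart. The titles name exosomes, whereas the extraction label speaks of RNA from cells. Each group had 1 array with 1 colour (Cy5), so there is no replicate, no test and no p-value, and group and array cannot be told apart.

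Signal was low on both arrays. Of 9 miRNAs known from glioblastoma and glial cells, 2 were above the detection limit in control and 1 in BNCT, with summed spot medians of 2691 and 2954 scanner units. The bright one was miR-24-3p (620.0 and 915.6 units), while miR-21-5p, the best known oncogenic miRNA of glioblastoma, was below the limit on both (260.2 and 255.7 units). Among lists for other sources, 0 and 1 of 3 neuronal miRNAs, 0 and 3 of 5 blood and serum miRNAs and 0 and 2 of 3 miRNAs often measured in vesicles were above the limit on the control and BNCT arrays.

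Mirtrons are short introns that fold into a hairpin once they are spliced out, so that splicing takes the place of the first cut that Drosha makes in other miRNA precursors. Dicer then releases a 5p and a 3p arm. The 3p arm lies at the end of the intron, where the splice acceptor has a run of pyrimidines (C and U) followed by AG, and the 5p arm of such hairpins is often rich in G. A miRNA pairs with its targets mainly through its seed, bases 2 to 8 from the 5′ end. Most numbers from miR-6726 on were annotated as mirtrons, whereas the few up to miR-6724 came into the database apart from them.

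The sequences carried this layout in most members. Mature sequences were found in the RefSeq table (build GRCh38.p14) for 155 of the 174. The 3p arms were on average 71.6% C and U (SD 9.59, n = 155 sequences), against 53.3% in 657 other 3p arms and 31.9% in 150 5p arms of the same numbers. They held 43.6% C and 16.4% G, while the 5p arms held 15.1% C and 47.1% G. The last 2 bases were AG in 116 of the 155 (74.8%), against 70 of the 657 other 3p arms (10.7%). Of the 150 hairpins found for these members, 140 ended in AG (93.3%) and 143 lay within the span of a protein-coding gene (95.3%). None of the 6 members up to miR-6724 ended in AG, and their mean C and U share was 53.4%. Of the 149 later members with a sequence 116 ended in AG (77.9%), and their mean C and U share was 72.4%. The name mirtron was thus borne out by sequence for most later numbers but not all, and not for these 6. Among the later ones miR-6840-3p, with 45.5% G, did not end in AG.

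The sequences shown next are those on which the results turn. The first group holds 3 of the 4 members with the largest lower differences in BNCT among those above the limit on both arrays, the second the 2 members that were bright on both arrays, and the third the member with the largest higher difference under the same condition. Each is written 5′ to 3′ from RefSeq (GRCh38.p14) with its seed in capitals.
miR-6872-3p: cCCAUGCCuccugccgcgguc
miR-6777-3p: uCCACUCUccuggcccccag
miR-6784-3p: uCUCACCCcaacucugccccag
miR-6722-3p: uGCAGGGGucgggugggccagg
miR-6840-3p: gCCCAGGAcuuugugcggggug
miR-6744-3p: gGGCCUCUcuugucauccugcag
The arms lie at chr3:50273275-50273295 (plus strand), chr17:17813480-17813499 (minus), chr17:45114367-45114388 (minus), chr9:136746903-136746924 (minus), chr7:100356696-100356717 (plus) and chr11:1256648-1256670 (plus), for miR-6872-3p, miR-6777-3p, miR-6784-3p, miR-6722-3p, miR-6840-3p and miR-6744-3p in that order. The hairpins of miR-6777 and miR-6784 fall within the spans of SREBF1, which encodes a transcription factor of lipid synthesis, and PLCD3, a phospholipase C. That of miR-6872 falls within SEMA3B, a secreted semaphorin, that of miR-6744 within MUC5B, a mucin, and that of miR-6722 within LCN6, a lipocalin. The table gives no exons or gene strand, so intron and exon were not told apart here.

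The contrast between a typical and an untypical member is plain in the hairpins, where the capitals mark the 3p arm.
MIR6777: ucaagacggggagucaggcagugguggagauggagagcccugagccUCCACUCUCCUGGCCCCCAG
MIR6722: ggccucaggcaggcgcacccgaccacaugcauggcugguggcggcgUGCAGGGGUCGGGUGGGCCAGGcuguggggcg
In MIR6777 the 3p arm ended at the last base of the hairpin. It was 55.0% C, and its partner miR-6777-5p (aCGGGGAGucaggcaguggugga) held the run of G. In MIR6722 10 more bases followed the 3p arm, which was itself 59.1% G and 18.2% C.

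Seeds were mostly unique. The 155 sequences held 150 seeds, and 5 seeds were shared by 2 members each. The seed CCCCUGC was carried by miR-6801-3p and miR-6810-3p, the only shared pair in which both members were above the limit on both arrays. The seed CUCACCC was carried by miR-6784-3p, which was above the limit on both arrays, and miR-6862-3p, which was below it on both.

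Few 3p arms stood above the blank spots, and fewer than of their 5p partners. Detection meant a spot median more than 2 SD over the mean of the blanks, 272.0 units in control and 267.5 in BNCT. Of the 174 members, 46 were above it in control (26.4%, 95% Wilson interval 20.4 to 33.4) and 57 in BNCT (32.8%, 26.2 to 40.04). Over all 2616 single-miRNA probes 28.7% and 36.2% were above it, so the share among the 3p arms was near the background at this limit. The 5p arms of the same numbers reached 132 and 149 of 175 (75.4% and 85.1%), and 733 other 3p arms 149 and 199 (20.3% and 27.1%). Over 171 hairpins with both arms on the array, 87 had the 5p arm alone over the limit in control and 92 on the BNCT array, against 4 and 4 with the 3p arm alone. Intervals cover the counting of probes only, since the number of arrays is what limits precision.

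The members above the limit were mostly close to it. Medians over the 174 were 264.0 units in control and 262.8 in BNCT, with lowest values of 240.3 and 242.1. On both arrays 33 members were above the limit (24.1% of all single-miRNA probes were), 13 on the control array alone (background 4.63%), 24 on the BNCT array alone (background 12.1%) and 104 on neither. Of the blank spots themselves 17 of 312 and 16 of 312 lay above the limits. The 112 spots that carry no probe had medians of 302.1 and 286.0 units, above all but 2 members on the control array and all but 5 on the BNCT array. With limits drawn from them, 2 members passed on each array, and with limits at 5 SD of the blanks 4 and 5 passed. Among the 2616 single-miRNA probes 235 and 404 passed the no-probe limits, and 356 and 522 passed those at 5 SD. At these stricter limits the share among the members was thus below the background. Limits taken from the scanner's local background column let 160 and 162 pass. Brightness of different probes does not rank the miRNAs, because probes differ in how well they bind.

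**Figure D1:**
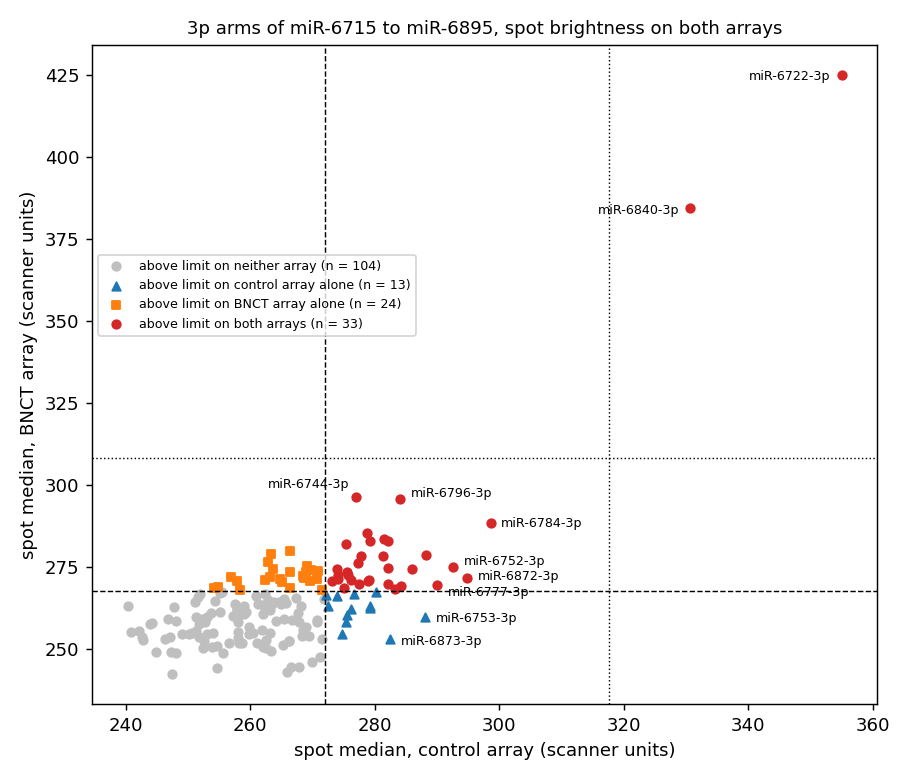
Spot medians in scanner units of the 174 3p arms, control array on the horizontal and BNCT array on the vertical axis, 1 point per member, with colours for detection, dashed lines at the blank-spot limits (272.0 and 267.5) and dotted lines at the no-probe limits (317.6 and 308.3). miR-6722-3p and miR-6840-3p stand apart, and all other members read under 300 units on both arrays.

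The bright pair differed from the rest in sequence. miR-6722-3p read 355.0 units in control and 425.2 in BNCT, and miR-6840-3p read 330.6 and 384.4. Both were higher on the BNCT array in raw units, but so were most bright probes, and after normalization both differences were 0.00 on the log2 scale (BNCT minus control), with spot errors of 0.13 and 0.14. The spot error combines the spread of the blanks with that of the spike control spots and covers noise within an array only. Without normalization the differences were 0.62 and 0.59. With the scanner's local background column, which read 272.6 and 411.0 units at the miR-6722-3p spot, that member was -0.51 and miR-6840-3p 0.12. Neither sequence ends in AG, and G made up 59.1% and 45.5% of them, against a mean of 16.4% over the 155 members.

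The 5p partners of the bright pair each read lower than the bright arm on both arrays. The partner miR-6722-5p read 301.9 and 314.4 units, and miR-6840-5p read 279.4 in control and 259.1 in BNCT, where it was below the limit.

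Over all 155 members with a sequence, the bright pair included, spots above the limit were most frequent at C-rich sequences. Of 51 members with 50% C or more, 26 were over the limit in control (51.0%) and 31 on the BNCT array (60.8%). Of 52 with 40% to under 50% C, 6 and 14 were (11.5% and 26.9%), and of 52 with under 40%, 7 and 6 (13.5% and 11.5%). Across the 155 members, which share the arrays and are not independent replicates, Spearman's rho between C share and spot median was 0.49 in control and 0.48 in BNCT. For the share of G and C together rho was 0.46 and 0.39, and for U share it was -0.36 and -0.33. Across 657 other 3p arms rho with C share was 0.17 and 0.22. The 29 members with a sequence that were above the limit on both arrays had 49.99% C and 23.0% U on average, against 40.4% and 30.1% in the 94 above it on neither.

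**Figure D2:**
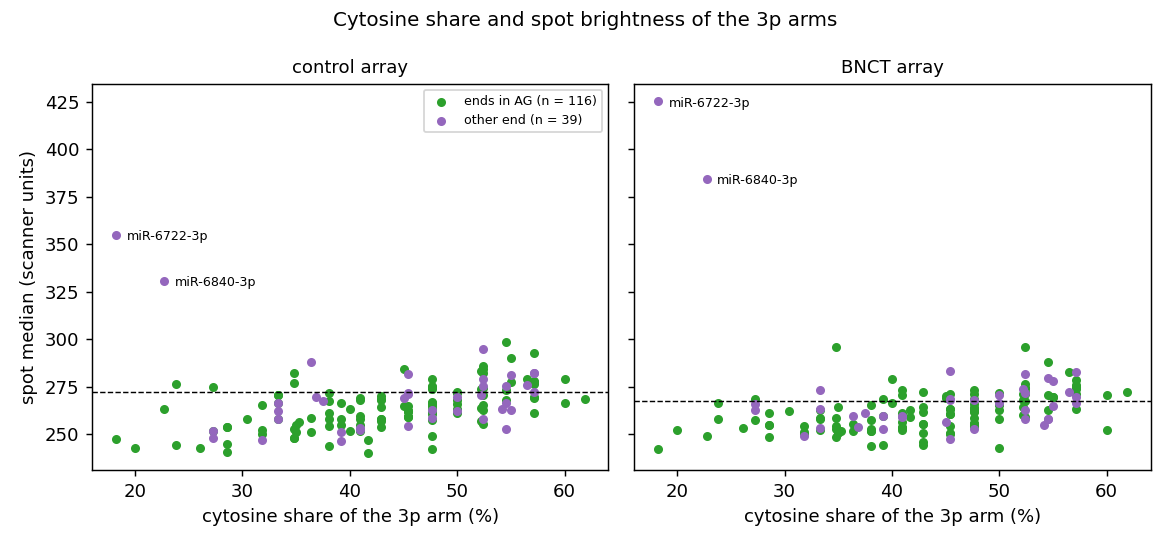
Spot median in scanner units against the cytosine share of the mature 3p arm, 1 point per member with a sequence (155), control array left and BNCT array right, dashed line at the detection limit, colour by whether the arm ends in AG. Spots of members with 50% C or more lie above the limit most often, and miR-6722-3p and miR-6840-3p are bright with a low C share.

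Position on the array also moved with detection. The array has 32 blocks, and on the control array the blank spots of blocks 1, 2, 9, 10, 17, 18, 25 and 26, set apart after the blanks were seen, had a median of 266.9 units, against 255.5 in the other 24 blocks. On the BNCT array these medians were 258.7 and 253.1. Of the 44 members in those 8 blocks 23 were over the limit in control (52.3%) and 24 on the BNCT array (54.5%), against 23 (17.7%) and 33 (25.4%) of the 130 members elsewhere. Over all miRNA probes the shares were 43.3% and 40.2% in the 8 blocks, against 23.7% and 34.9% elsewhere. When each spot was shifted by its own block's blank median, an alternative added after seeing the data, 63 members were over the limit in control, 68 on the BNCT array and 39 on both.

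The difference between BNCT and control was below 0 for most 3p arms that could be compared. Of the 33 members above the limit on both arrays, 28 were lower in BNCT and 5 higher after normalization, while 54% of all 630 probes above the limit on both arrays were lower. The median difference was -0.12 (SD over members 0.20, n = 33), against -0.02 over the 630 probes, 0.00 over 130 5p arms and -0.04 over 102 other 3p arms. Without a detection filter the shift was not seen, with 89 of all 174 members below 0 and a median of -0.0059. In raw units 22 of the 33 read lower on the BNCT array, against 102 of the 630 (16.2%) and 35 of the 102 other 3p arms (34.3%). This contrast was not matched for brightness. Bright probes in general read higher on the BNCT array, while 31 of the 33 members read under 300 units on the control array. The mean of the blanks was also lower on the BNCT array (254.9 units) than on the control array (258.1). No member and no other probe above the limit on both arrays differed 2-fold (0%). Spearman's rho between the spot medians of the 2 arrays was 0.28 over the 33 members. It was 0.92 over the 630 probes, 0.97 over the 5p arms and 0.81 over the other 3p arms. The order by brightness was thus poorly kept between the arrays over these 33, most of which span a narrow range of units. The groups were not matched for that range. Without the detection filter rho was 0.56 over all 174 members and 0.58 over all 733 other 3p arms. It was 0.97 over all 5p arms and 0.71 over all miRNA probes. The members' median spot error was 0.20, and 10 of the 33 were lower by more than their spot error and 1 was higher, with backgrounds of 20.5% and 20.6%. By more than 2 spot errors 5 were lower and 0 higher, with backgrounds of 6.03% and 7.46%.

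The sign of that median depended on scaling. Without normalization it was 0.04 for the members and 0.49 for all probes, and when scaled to the spike controls 0.32 and 0.77. With scaling to the median of shared probes it was -0.50 and -0.06, and in the authors' processed values -0.31 over 34 members and 0.41 over all listed probes. With the scanner's local background column it was 0.05 against -0.04. The members' median lay under that of all probes with the first 4 of these scalings, and over it with the scanner's column. No normalization, spike scaling and median scaling differ only by a constant per array. Their gap between members and all probes, -0.44, is therefore the same by construction, and they are not separate comparisons.

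Dim probes were also compared by group. The groups were not matched by brightness or by array block, and whether dimness bears on the shift was not tested. Among probes above the limit on both arrays that read under 300 units on the control array, a bound chosen after seeing the data, 31 members had a median of -0.12 and 28 were below 0. The 289 other probes had a median of 0.00 with 142 below 0, the 39 5p arms 0.09 with 12 below 0, and the 75 other 3p arms -0.05 with 45 below 0. For 30 hairpins both arms were above the limit on both arrays. Their 3p arms had a median of -0.12 and their 5p arms -0.05, the 3p arm had the lower difference in 22 of 30, and Spearman's rho between the arms' differences was 0.03.

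**Figure D3:**
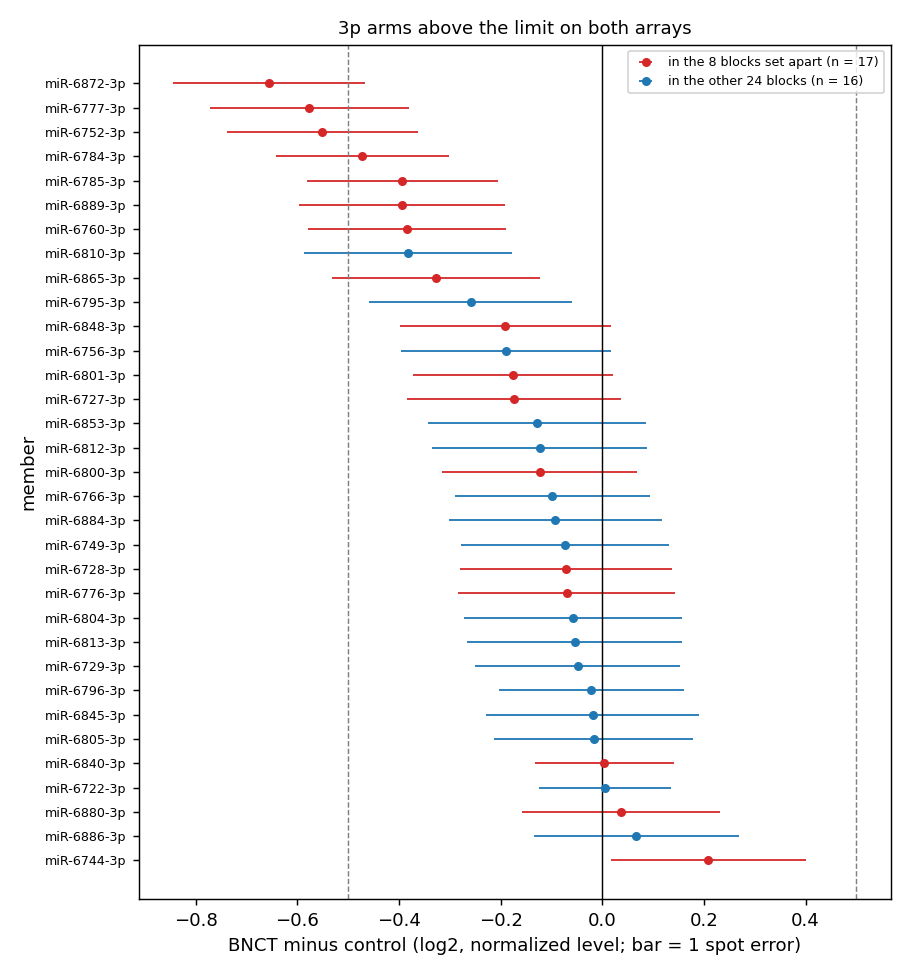
Normalized difference, BNCT minus control on the log2 scale, of the 33 members above the limit on both arrays, 1 point each with a bar of 1 spot error, red for members in blocks 1, 2, 9, 10, 17, 18, 25 and 26 and blue for the others. Dashed lines mark 0.5 in either direction. Of the 33 points 28 lie below 0, 3 lie past -0.5, and these 3 are red.

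Lower by 0.5 or more were 3 members, miR-6872-3p, miR-6777-3p and miR-6752-3p, among 11 of all 630 probes (1.75%), and 0 were higher by 0.5 or more (12 of 630, 1.9%). miR-6872-3p read 294.8 units in control and 271.5 in BNCT, a difference of -0.66 (spot error 0.19). Its partner miR-6872-5p read 272.0 and 276.6, a difference of 0.06 (spot error 0.21). The 3p arm was thus the lower of the pair in BNCT relative to control, by more than both spot errors together. miR-6777-3p read 290.0 and 269.4, a difference of -0.58 (spot error 0.20). Its partner miR-6777-5p read 391.6 and 470.4, a difference of -0.04 (spot error 0.13). miR-6752-3p read 292.6 and 274.9, a difference of -0.55 (spot error 0.19), with miR-6752-5p at 541.6 and 674.5 and a difference of -0.18 (spot error 0.12). On the BNCT array all 3 were close to the limit of 267.5 units. In raw units the 3p arms read lower on the BNCT array, while their 3 partners read higher.

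These calls changed with the background setting. Without background correction none of the 3 passed 0.5, and with the scanner's local background column miR-6777-3p turned to 0.47, while miR-6872-3p was -0.27 and miR-6752-3p -0.11. Without normalization they were -0.34, -0.29 and -0.23. In the authors' processed values they were -1.46, -1.45 and -1.10.

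Below these 3 came 7 members with differences of -0.47 to -0.26. miR-6784-3p was the brightest, at 298.6 units in control and 288.2 in BNCT, a difference of -0.47 (spot error 0.17), and besides the bright pair no other member passed the 5 SD limits on both. miR-6785-3p read 288.2 and 278.5 and miR-6889-3p, from a hairpin within RANGAP1, which activates the GTPase of Ran, read 284.2 and 269.2, both with a difference of -0.39. miR-6760-3p (286.0 and 274.3) and miR-6810-3p (283.2 and 268.1) were at -0.38. miR-6865-3p (282.1 and 269.7) was at -0.33. miR-6795-3p, from a hairpin within the receptor gene NOTCH3, read 282.2 and 274.5 and was at -0.26. All 7 read lower on the BNCT array, and 2 of them, miR-6784-3p and miR-6785-3p, lay beyond 2 spot errors.

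The members that were higher in BNCT were 5, of which 1 lay beyond its spot error. miR-6744-3p read 277.0 units in control and 296.2 in BNCT, a difference of 0.21 (spot error 0.19), and turned to -0.10 with scaling to the median of shared probes and to -0.21 with the scanner's local background column. Its partner miR-6744-5p read 314.3 and 331.3 and was at -0.30 (spot error 0.15). miR-6886-3p was at 0.07 (275.3 and 281.9 units) and miR-6880-3p at 0.04 (278.8 and 285.2), and the bright pair at 0.00. Of the 8 brightest members on the BNCT array, miR-6796-3p (284.1 and 295.8), miR-6766-3p (281.4 and 283.4) and miR-6800-3p (282.1 and 282.9) were at -0.02, -0.10 and -0.12, each within its spot error.

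The lowest differences lay in the 8 blocks set apart. Not each of these had high blanks, since block 9 had a control blank median of 258.5 units and block 6, counted among the others, one of 260.2. Of the 33 members 17 were in those 8 blocks, with a median of -0.19, all 3 calls and 14 below 0. The other 16 had a median of -0.07, 0 calls and 14 below 0. Over all probes above the limit on both arrays the medians were -0.07 in the 8 blocks (201 probes) and 0.00 elsewhere (429 probes). The 7 members with the largest lower differences were all in the 8 blocks. miR-6872-3p and miR-6752-3p were in block 2, where the 4 blanks had medians of 262.4 units in control and 263.1 in BNCT, and miR-6777-3p in block 26, where the 12 blanks had medians of 267.6 and 262.5. With spots shifted by their block's blank median, the median over 39 members was -0.13, with 33 below 0, and 2 were lower by 0.5 or more, miR-6752-3p at -0.60 and miR-6810-3p at -0.54. For all 697 probes compared under that shift the median was -0.02, with 54.2% below 0 and 8 (1.15%) lower by 0.5 or more. miR-6872-3p (-0.71) and miR-6777-3p (-0.43) were then below the limit on the BNCT array.

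**Figure D4:**
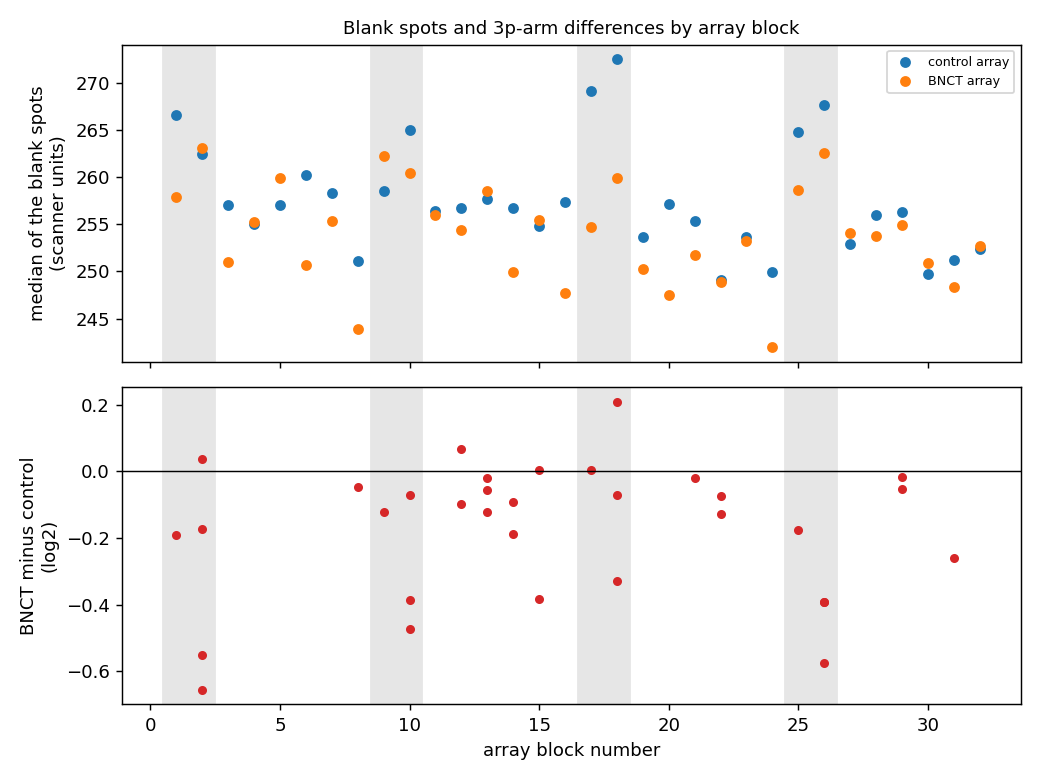
Median of the blank spots in scanner units by array block (upper panel, blue control and orange BNCT) and the normalized log2 difference of the 33 members above the limit on both arrays, by their block (lower panel). The shaded blocks 1, 2, 9, 10, 17, 18, 25 and 26 had a blank median of 266.9 on the control array against 255.5 elsewhere, and hold the 7 largest lower differences.

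Members above the limit on 1 array gave small lower bounds. As a bound, the normalized level where the probe was detected was set over its level on the other array, or over the lowest level detected there if that was higher. On the control array alone miR-6753-3p, from a hairpin within TCIRG1, a proton pump subunit gene, read 288.0 units against 259.7 and was at least 1.47-fold higher in control. miR-6873-3p read 282.5 against 252.8 (at least 1.29-fold), and miR-6849-3p 280.2 against 267.4 (at least 1.21-fold). For miR-6790-3p and miR-6769a-3p the bound was 1.19-fold each and for miR-6888-3p 1.13-fold. miR-6753-3p and miR-6873-3p were both in block 18, where 4 blanks had a median of 272.5 units on the control array, above the limit itself. With spots shifted by the block's blank median miR-6753-3p had a bound of 1.13, and miR-6873-3p was below the limit on both arrays.

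On the BNCT array alone the bounds were smaller, but the sizes are not comparable between the arrays. After quantile normalization the lowest detected level was higher on the control array, which makes BNCT-alone bounds smaller by construction. miR-6797-3p, from a hairpin within the ribosomal protein gene RPS19, read 266.4 units in control and 279.7 in BNCT and was at least 1.08-fold higher in BNCT. miR-6832-3p (263.4 and 278.8) followed at 1.07-fold and miR-6887-3p (262.9 and 276.3) at 1.04-fold, and miR-6798-3p, miR-6892-3p and miR-6846-3p were at 1.02, 1.01 and 1.01. Bounds were above 1 for 9 of the 24 members seen in BNCT alone and for all 13 seen in control alone. Over all single-miRNA probes they were above 1 for 171 of 317 and for all 121. The control-alone counts were fixed by the procedure. Quantile normalization makes the levels of both arrays alike, while the BNCT array had the larger number of detected probes. No bound reached 2-fold in the main setting, and with plain subtraction of the blanks 5 of the 6 named control-alone bounds did, from 2.20 for miR-6769a-3p to 3.68 for miR-6753-3p. With scaling to the median of shared probes all 6 named BNCT-alone bounds fell below 1, to between 0.75 and 0.81, and with spike scaling 5 of the 6 named control-alone bounds did, to between 0.87 and 0.93.

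The 3p arms of mirtrons described earlier, 12 in all, gave 4 over the limit in control, 8 on the BNCT array and 3 on both. miR-1224-3p read 281.6 and 274.2 units (difference -0.25, spot error 0.20), miR-1234-3p 281.6 and 280.5 (-0.14, spot error 0.19) and miR-1227-3p 276.5 and 275.7 (-0.05, spot error 0.21). All 3 were below 0 and 0 passed 0.5 (background 1.75%). On the BNCT array alone were miR-1228-3p (265.1 and 291.6 units, at least 1.19-fold higher in BNCT), miR-1229-3p (270.7 and 282.6, 1.11-fold), miR-1225-3p (265.9 and 281.0, 1.09-fold), miR-1237-3p (265.9 and 277.8, 1.05-fold) and miR-1236-3p (249.8 and 276.9, 1.04-fold). miR-1233-3p was over the limit in control alone (272.5 and 267.3). Their sequences had the same layout, with 77.7% C and U and 9 of 11 ending in AG.

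**Figure D5:**
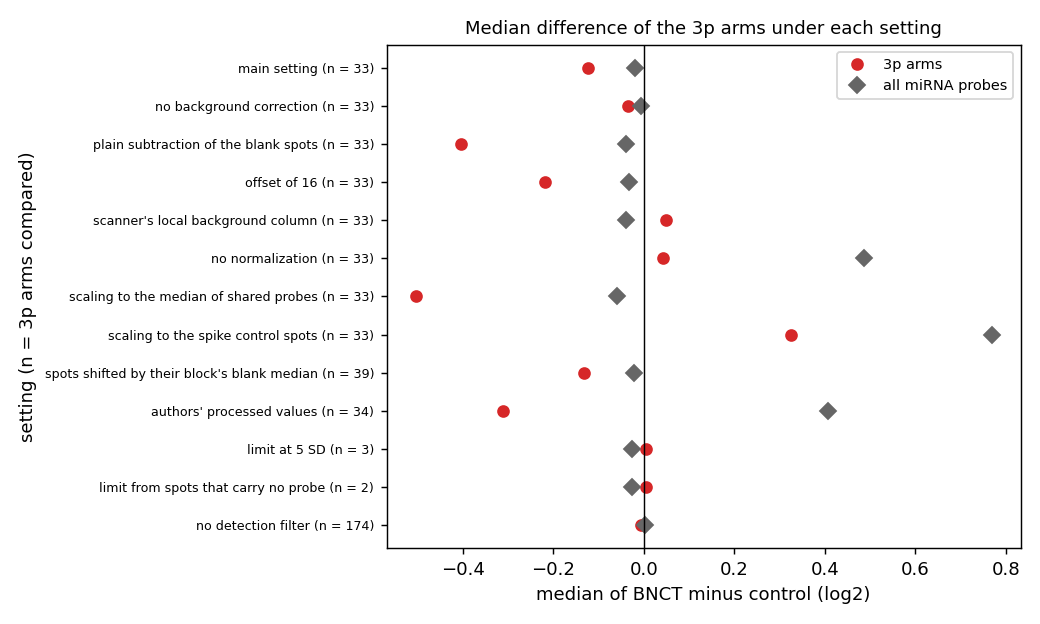
Median of BNCT minus control on the log2 scale under each setting, red circles for the 3p arms compared and grey diamonds for all miRNA probes that passed the same filter, with the number of 3p arms after each setting's name. The 3p arms sit at -0.12 against -0.02 in the main setting, and the sign of their median changes with scaling, with the scanner's local background column and with the stricter limits.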

How the data were processed

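Exosomal RNA was measured on 2 Toray 3D-Gene arrays. The deposited scanner output gives, per the file headers, spot median intensity at 635 nm, with lines fitted between 3 gains, a local background median and flags; both columns are intensities, unscaled between arrays. The authors' processed values are intensities too. Each equals the spot median minus a constant (258.1 and 254.9) divided by a factor (1.25 and 1.54) that sets the listed median to 25, over 761 and 957 listed probes. Scale, centring and direction are thereby known. Software: not given in the sources used here.

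In R 4.3.3 with limma 3.58.1, spots were corrected with nec (normexp on the blank spots, offset 50), put on the log2 scale and quantile-normalized over the 2632 miRNA probes, without spots flagged as failed, none of them a member. The blank mean and SD left out the top and bottom 5%. The spot error carries the blank SD (6.93 and 6.27 units) and the spike control CV (4.70% and 8.03%) to the log2 scale. The procedure was also run on simulated arrays, with changes of 2-fold or more planted in probes well above the blanks and no differences between blocks. That run does not bear on members near the limit or on smaller differences. With 1 array per group, fixed sizes of 0.5 log2 and 2-fold stood in for a test.

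The design's shares use all 2616 single-miRNA probes and its differences the 630 of 2632 probes above the limit on both arrays. Named were the 10 largest differences in each direction among members above the limit on both arrays, the 8 brightest per array, the 6 largest bounds per array and partner 5p arms, not all of which are printed. Alternatives were other background corrections, scalings and limits, and the authors' values. The shift by block blanks, the split by blocks, the C-share bands and the 300-unit bound were added after the files were seen. Members and lists were chosen with earlier results of these data known. Sequences and coordinates come from RefSeq tables (GRCh38.p14). Some host genes are not reported here.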

Additional observations from a re-analysis of the deposited data

How the results depend on the processing

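Detection depended on the limit. At 5 SD 4, 5 and 3 members were above it on the control array, the BNCT array and both, taking the limit from no-probe spots 2, 2 and 2, and with the scanner's local background column 160, 162 and 150, against 46, 57 and 33. Of all miRNA probes 348 were above it on both arrays at 5 SD and 232 with the no-probe limits, against 630 in the main setting. The counts in the authors' values and with spots shifted by block blanks stayed within 1.5 times. The median difference of -0.12 was -0.034 without background correction, -0.0059 without a detection filter, -0.22 with an offset of 16, -0.40 with plain subtraction of the blanks and -0.50 with scaling to the median of shared probes, and turned to 0.049 with the scanner's column, 0.042 without normalization, 0.32 with spike scaling, and 0.0043 and 0.0046 at the stricter limits (3 and 2 members). Lower by 0.5 or more, 3 in the main setting, were 0 without background correction, without normalization, with spike scaling and at both stricter limits, 5 without a detection filter, 9 with an offset of 16, 15 in the authors' values, 16 with plain subtraction and 19 with median scaling. Over all probes 11 of 630 were lower in the main setting, 37 with the offset and 51 (8.03%) in the authors' values. With plain subtraction 94 were lower, with median scaling 77, and without a detection filter 31 of 2630 (1.18%). Higher by 0.5 or more, 0 in the main setting, were 1 with plain subtraction, 1 with the scanner's column, 2 without normalization, 3 in the authors' values and 6 with spike scaling, against 74, 23, 303, 263 and 472 of all probes. Past 2-fold, also 0, were 2 with the offset of 16, 7 in the authors' values and 9 with plain subtraction, against 10, 87 and 40 of all probes. A smaller offset or none shrinks differences of dim spots less, by construction. For other changes the cause was not tested.

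Among named members, spike scaling turned miR-6752-3p to 0.051, miR-6760-3p to 0.16, miR-6784-3p to 0.20, miR-6785-3p to 0.20, miR-6795-3p to 0.24, miR-6810-3p to 0.10, miR-6865-3p to 0.15 and miR-6889-3p to 0.10. The scanner's column turned miR-6777-3p to 0.47, miR-6785-3p to 0.35, miR-6889-3p to 0.52 and miR-6744-3p to -0.21, and median scaling turned miR-6744-3p to -0.10. Of members within their spot error at first, median scaling took miR-6880-3p and miR-6886-3p to -0.32 each, and spike scaling took miR-6766-3p, miR-6796-3p and miR-6800-3p to 0.43, 0.59 and 0.40. Of the other recomputed differences of named members, 56 moved by less than their spot error and 93 by more. Of 92 recomputed bounds 78 stayed on their side of 1 and 14 did not, 6 of them under median scaling, 5 under spike scaling and 3 under the scanner's column. No paired analysis was possible because each group has 1 array, and leaving out a replicate was not possible for the same reason. Signal over background limits all of this, since 31 of the 33 compared members read under 300 units on the control array.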
